A study of Homo sapiens with 3 samples.

Results

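The transcripts of BE(2)-C cells that had received WDR5 siRNA-1 were set against those of cells that had received a control siRNA. BE(2)-C is an established human neuroblastoma line with an amplified MYCN gene, grown in serum-containing medium. All cultures were harvested 40 hours after the siRNA and read on Affymetrix HuGene-2_0-st arrays, whose probes are spread along each transcript. Per the labels, the compared groups differed in the siRNA alone, and each siRNA, the control and those called WDR5 siRNA-1 and WDR5 siRNA-2 in the labels, was represented by 1 array. The values of siRNA-2 serve here only to show which differences it did not share.

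Each gene was represented by its probe set of highest mean level across all 3 arrays, and genes whose mean log2 level was at or above the median of all genes were kept. This gave 7442 of 14884 named genes, of which 6866 were protein-coding, 239 long noncoding and 191 microRNA genes. The limit lay at a log2 level of 6.78, with PABIR3 just inside and C20orf141 just outside, both at 6.78 after rounding. The measure throughout is the log2 level with siRNA-1 minus the log2 level with the control siRNA, called the ratio. A gene was counted as higher or lower from 1.5-fold upward, a log2 ratio of 0.58 in size. With 1 array a group there is no replicate error and no p-value, so every value is a description of these arrays.

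WDR5 is a WD-repeat protein that holds together the SET1 and MLL methyltransferase complexes, which place methyl groups on lysine 4 of histone H3 at active promoters. It is also a subunit of other chromatin complexes and binds MYC family proteins, and through this contact it helps to bring them to chromatin. Neuroblastoma arises from the sympathoadrenal lineage, and the cells of such lines lie between an adrenergic state, with noradrenaline-synthesising enzymes, and a mesenchymal state.

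The arrays were alike in scale, with medians of all probe sets at 5.81 for control and 5.79 for each WDR5 siRNA. The 23 background rows of the array ran from a log2 level of 1.75 to 9.26 on the control array, with a median of 4.61. On both the control and the siRNA-1 array, 2313 of the kept genes lay above the highest of these rows. A level below 9.26 is thus below the highest background row and not below all of them. A fold that involves such a level is uncertain in size. The control and siRNA-1 arrays held exactly the same value for 1761 kept genes, 23.7% of them. Of 9 adrenergic markers measured, 8 were above the highest background row on the control array. The median level of the 9 was 10.4 with control, the level of DBH, and 10.0 with siRNA-1, the level of ISL1. These medians thus come from different genes, and the ratios of single markers ran from -0.81 for DBH to 0.23 for ISL1. TH, the noradrenaline pathway's first enzyme, stood at 7.29 on all arrays. Of the markers of other cells chosen, none of 4 Schwann and stromal, 9 leukocyte and endothelial, 6 mesenchymal and 4 epithelial ones measured was above the highest background row on the control array. SNAI2, a mesenchymal neuroblastoma gene outside these 6 markers, was above it at 12.16. The summed log2 level of the leukocyte and endothelial markers was 51.8 with control and 52.8 with siRNA-1. That of the Schwann and stromal markers was 24.8 and 24.9.

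The targeted transcript itself was lower. WDR5 stood at 9.46 with the control siRNA and at 7.90 with siRNA-1, a ratio of -1.56, or 2.95-fold lower, and it ranked among the 25 lowest genes. With siRNA-2 the deposited value was the same, 7.90, an exact tie between the siRNA arrays. Exact ties between arrays were frequent, with 23.7% of kept genes tied between control and siRNA-1. The tie therefore need not mean that the siRNAs lowered WDR5 equally.

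In all, 167 genes (2.24% of those kept) were higher with siRNA-1 and 342 (4.60%) were lower. The median ratio over all kept genes was 0.00 and its SD across genes was 0.31. Slightly more genes lay below control than above it, 2845 against 2836, so the excess of lower genes was in the tail and not in the bulk. At least 2-fold, 39 genes were higher and 83 lower, and at least 3-fold, 3 were higher and 9 lower. When the kept genes were ordered by level and cut into 4 equal bins, lower genes outnumbered higher ones in every bin, with 69 against 28 in that of lowest level and 77 against 48 in that of highest level. Of the higher genes 154 were protein-coding, and of the lower ones 321 were. In a culture measured in bulk, fewer cells of a type and less RNA per cell cannot be told apart.

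**Figure D1:**
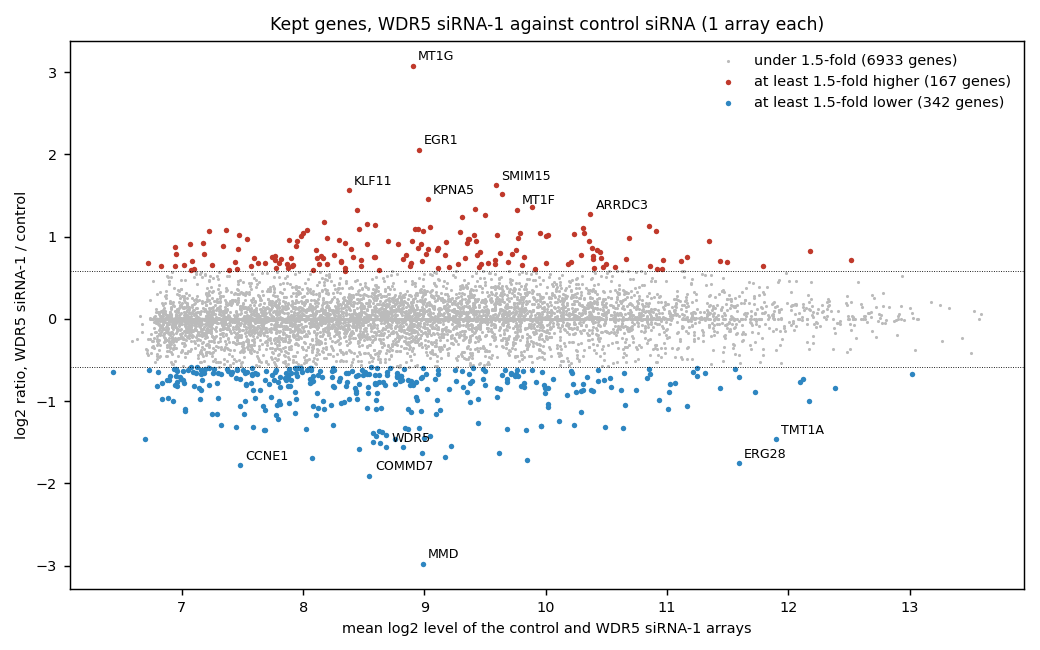
Log2 ratio of WDR5 siRNA-1 to control siRNA for the 7442 kept genes (vertical axis) against the mean log2 level of the 2 arrays (horizontal axis); each point is 1 gene, and dotted lines mark 1.5-fold. The 167 higher genes are red and the 342 lower genes blue, and MT1G at 3.08 and MMD at -2.98 lie farthest from 0.

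The genes with the highest ratios held metal-binding proteins, transcription factors and regulators of ubiquitin ligases. MT1G, a metallothionein, stood at 7.36 with control and at 10.44 with siRNA-1, a ratio of 3.08 or 8.45-fold higher. With siRNA-2 it stood at 5.36, below the level limit. Its mean level passed that limit through the high siRNA-1 value, so MT1G could be kept only with a high value there. EGR1, a transcription factor of the immediate-early response, stood at 7.93, 9.98 and 9.84 with control, siRNA-1 and siRNA-2, or 4.15-fold higher with siRNA-1. KLF11, a Krüppel-like factor that represses transcription, stood at 7.59, 9.16 and 7.98, or 2.95-fold higher. EGR1 was thus near the same level with both WDR5 siRNAs, KLF11 was highest with siRNA-1, and MT1G lay on opposite sides of control.

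ARRDC3 and ARRDC4 encode arrestin-domain proteins that link membrane proteins to NEDD4-family ubiquitin ligases. ARRDC3 stood at 9.73 with control, 11.00 with siRNA-1 and 10.04 with siRNA-2, or 2.41-fold higher with siRNA-1. ARRDC4 stood at 8.40, 9.49 and 8.62, or 2.13-fold higher. SPOPL, a substrate adaptor of a cullin ubiquitin ligase, stood at 8.02, 9.16 and 8.49, or 2.21-fold higher. In all 3 genes the siRNA-2 level was between the control and siRNA-1 levels.

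Kinases of proteins and inositol phosphates were in the same set. UHMK1, a serine/threonine kinase that phosphorylates splicing and cell cycle proteins, stood at 9.21, 10.57 and 8.46 with control, siRNA-1 and siRNA-2. HIPK3, a homeodomain-interacting kinase, stood at 8.87, 10.13 and 8.10. IPMK, the inositol polyphosphate multikinase, stood at 9.75, 10.86 and 10.11, and PLK2, a polo-like kinase, at 6.82, 7.91 and 7.73. UHMK1 and HIPK3 were 2.57-fold and 2.40-fold higher with siRNA-1 and lower than control with siRNA-2, whereas IPMK and PLK2 were above control with both. Zinc finger genes were represented by ZNF138 (ratio 1.33), ZNF681 (1.15), ZBTB41 (1.12) and ZNF254 (1.09), whose ratios with siRNA-2 were 0.39, -0.03, -0.45 and 0.36.

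The remaining genes of the 25 highest had varied products. KPNA5, an importin alpha, was at 8.30 with control and at 9.75 with each WDR5 siRNA, again an exact tie. LUM, the matrix proteoglycan lumican, was at 8.88, 10.40 and 9.86, and VGF, a neuropeptide precursor, was at 8.69, 9.93 and 9.84. PEG10, an imprinted gene derived from a retrotransposon, was at 10.38, 11.44 and 10.85. SMIM15 (1.62), MT1F (1.33), INAFM1 (1.32), LURAP1L (1.18), CSGALNACT2 (1.09), IFT57 (1.09) and PCDHB13 (1.07) complete the set by their siRNA-1 ratios. Of these 25 genes, 9 were at least 1.5-fold higher with siRNA-2 too, 2 were within 1.2-fold of control with it and 4 were at least 1.5-fold lower. ARRDC3, IPMK and PEG10 were the 3 that stood above the highest background row on both the control and the siRNA-1 array.

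The lowest ratio belonged to MMD, a membrane protein of the progestin and adipoQ receptor family. It stood at 10.47 with control, 7.50 with siRNA-1 and 9.72 with siRNA-2, or 7.87-fold lower with siRNA-1. COMMD7, of a family of endosomal sorting and NF-kappa-B regulators, stood at 9.50, 7.59 and 8.77, or 3.75-fold lower. Both genes were lower with siRNA-2 as well, but by less, with ratios of -0.76 and -0.73.

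Enzymes and related proteins among the 25 lowest genes are given first. ERG28, a scaffold of the sterol demethylation enzymes, stood at 12.47 with control, 10.71 with siRNA-1 and 12.91 with siRNA-2, or 3.37-fold lower with siRNA-1. PHGDH, the enzyme that commits glycolytic carbon to serine synthesis, stood at 9.99, 8.44 and 9.90, or 2.92-fold lower. DOLPP1, which recycles the dolichol carrier of N-glycosylation, stood at 10.43, 8.80 and 10.47, or 3.09-fold lower. In each of these genes the siRNA-2 array was at or above control, or below it by less than 0.10. TMT1A, a thiol methyltransferase, had a ratio of -1.46 and MBOAT4, the acyltransferase that modifies ghrelin, of -1.39.

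RNGTT, the enzyme that caps messenger RNA, stood at 9.60 with control, 8.04 with siRNA-1 and 9.40 with siRNA-2. TOMM34, a co-chaperone that delivers precursors to mitochondria, stood at 10.71, 8.99 and 10.74. CNIH1, a cargo receptor for export from the endoplasmic reticulum, stood at 9.32, 7.82 and 9.59. These genes were 2.95-fold, 3.28-fold and 2.83-fold lower with siRNA-1. POGLUT2, which adds glucose to EGF repeats, stood at 9.39, 7.98 and 9.38.

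Cell division genes were also among the 25 lowest. CCNE1, cyclin E1, stood at 8.37, 6.59 and 5.98 with control, siRNA-1 and siRNA-2, or 3.43-fold lower with siRNA-1. E2F7, an E2F family repressor, stood at 9.31, 7.88 and 8.66, or 2.69-fold lower. ANAPC13, a subunit of the anaphase-promoting complex, stood at 9.79, 8.17 and 9.87, and MZT1, a component of the gamma-tubulin ring complex, at 9.31, 7.95 and 9.50. CCNE1 and E2F7 were lower with siRNA-2 too, and ANAPC13 and MZT1 were within 1.2-fold of control with it.

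Signalling and surface genes of the 25 lowest included growth factors and their binding proteins. FGF2, basic fibroblast growth factor, stood at 9.34 with control, 7.96 with siRNA-1 and 9.12 with siRNA-2, or 2.59-fold lower with siRNA-1. IGFBP5, an insulin-like growth factor binding protein, stood at 9.49, 8.02 and 8.51, or 2.76-fold lower. TSPAN13, a tetraspanin, stood at 8.92, 7.23 and 9.02, and TMEFF2, a transmembrane protein with EGF-like and follistatin-like domains, at 7.42, 5.97 and 7.46. FGF2, TSPAN13 and TMEFF2 were within 1.2-fold of control with siRNA-2, whereas IGFBP5 was not. The ubiquitin ligases RNF157 and TRIM25 had ratios of -1.68 and -1.45, and RBPMS2, an RNA-binding protein, had -1.58. ATXN7L3B (-1.51) and BRI3BP (-1.42) were the others beside WDR5. Of these 25 genes, 6 were at least 1.5-fold lower with siRNA-2 too, 13 were within 1.2-fold of control with it and 0 were at least 1.5-fold higher. ERG28 and TMT1A were the 2 above the highest background row on both the control and siRNA-1 arrays, and CCNE1 and TMEFF2 were below 6.78 with siRNA-1.

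**Figure D2:**
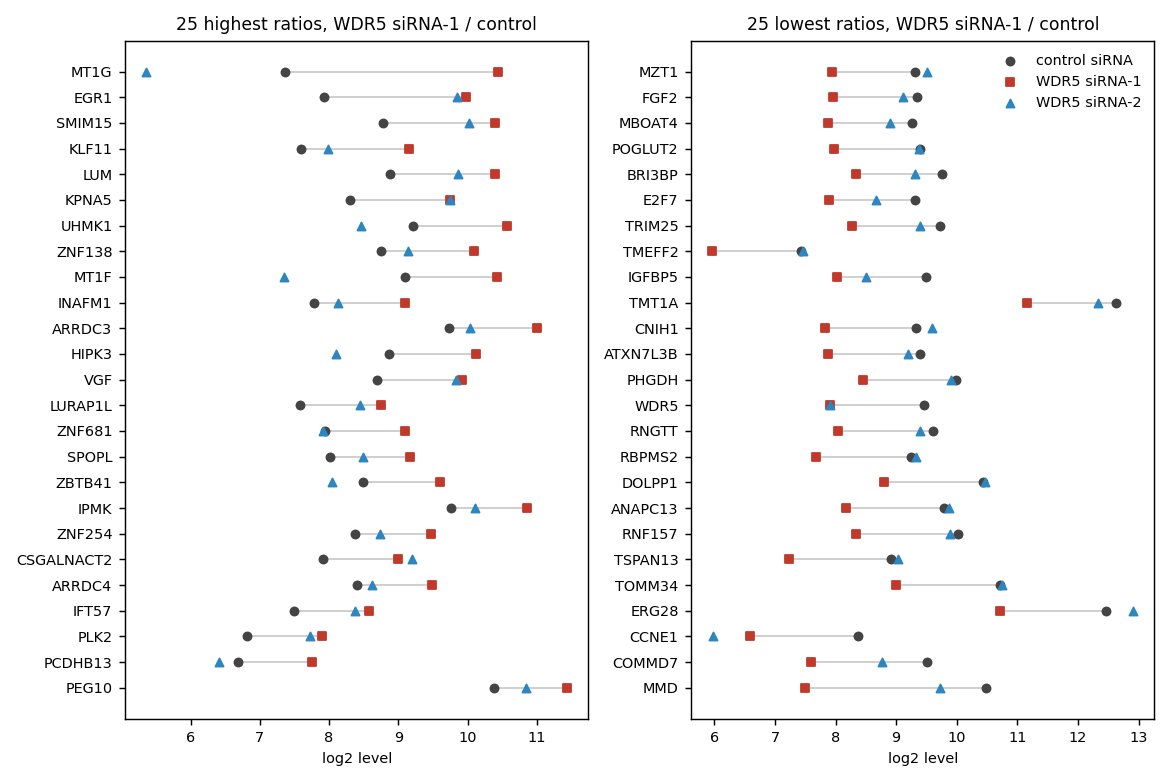
Log2 levels (horizontal axes) of the 25 genes with the highest (left) and the 25 with the lowest (right) ratio of WDR5 siRNA-1 to control; circles are the control array, squares siRNA-1 and triangles siRNA-2. Grey lines join control and siRNA-1, from 7.36 to 10.44 for MT1G and from 10.47 to 7.50 for MMD.

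The next question was which of the genes that differed with siRNA-1 stayed near control with siRNA-2. The ratios of both siRNAs share the single control array. Among the 167 higher genes, 59 were within 1.2-fold of control with siRNA-2 (0.793% of kept genes), and among the 342 lower genes, 160 were (2.15%). These are 35.3% of the higher and 46.8% of the lower genes. The share of all kept genes within 1.2-fold of control with siRNA-2 was not counted, so neither share has a baseline here. The other higher genes comprised 46 at least 1.5-fold and 40 between 1.2-fold and 1.5-fold higher with siRNA-2, and 15 and 7 that were lower with it by those limits. The other lower genes comprised 63 and 85 on the same side with siRNA-2, and 24 and 10 on the other side. For comparison, siRNA-2 gave 163 higher genes (2.19% of those kept) and 298 lower genes (4.00%) by the same limit. Whether a gene that differs with siRNA-1 alone reflects the siRNA, the culture or the array cannot be told apart with 1 array each.

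The 59 higher genes near control with siRNA-2 had a median ratio of 0.73 and a median control level of 8.33. Apart from ARRDC4 and ZNF681, the largest ratio was that of PIERCE2, a protein inside ciliary microtubules, at 8.45 with control, 9.52 with siRNA-1 and 8.62 with siRNA-2. FJX1, a secreted regulator of the four-jointed family, stood at 9.80, 10.84 and 10.03. STYX, a catalytically inactive phosphatase, stood at 9.72, 10.75 and 9.77. The siRNA-1 array was the high one in each case, as the choice of these genes requires, by 2.09-fold, 2.06-fold and 2.04-fold over control.

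Transporters, enzymes and trafficking proteins were also in that group. FLVCR1, a choline and haem transporter of the plasma membrane, stood at 9.28, 10.26 and 9.26. GCH1, the first enzyme of the synthesis of tetrahydrobiopterin, a cofactor of tyrosine hydroxylase, stood at 8.71, 9.64 and 8.66. TRAPPC6B, a subunit of the TRAPP vesicle tethering complex, stood at 9.09, 10.11 and 9.32. FLVCR1 and GCH1 were 1.98-fold and 1.91-fold higher with siRNA-1 and within 0.10 of control on the log2 scale with siRNA-2. DUSP4, a phosphatase of MAP kinases, stood at 8.51, 9.42 and 8.76, and KLHL24, a cullin ligase adaptor, at 8.51, 9.37 and 8.31. DLX5, a homeobox factor, had a ratio of 0.88, ANKRD37 of 1.02, the zinc finger genes ZNF429 and ZNF844 of 1.01 and 0.93, and PCDHB14, a protocadherin, of 0.92. FJX1, STYX and FLVCR1 were the 3 of the 15 named genes above the highest background row on both arrays.

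The 160 lower genes near control with siRNA-2 had a median ratio of -0.77 and a median control level of 8.97. The first 13 of the 15 lowest are described above, from TOMM34 at -1.72 to MZT1 at -1.36. After them came TULP3, which carries receptors into the primary cilium, at 10.51 with control, 9.16 with siRNA-1 and 10.63 with siRNA-2. PAPSS1, which makes the sulfate donor of sulfation reactions, stood at 9.62, 8.29 and 9.68. They were 2.55-fold and 2.52-fold lower with siRNA-1 and slightly above control with siRNA-2. STAT3, the transcription factor of cytokine signalling, lay outside the naming rule and was chosen after its values were seen. It stood at 11.30, 9.97 and 11.15, above the highest background row on every array.

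**Figure D3:**
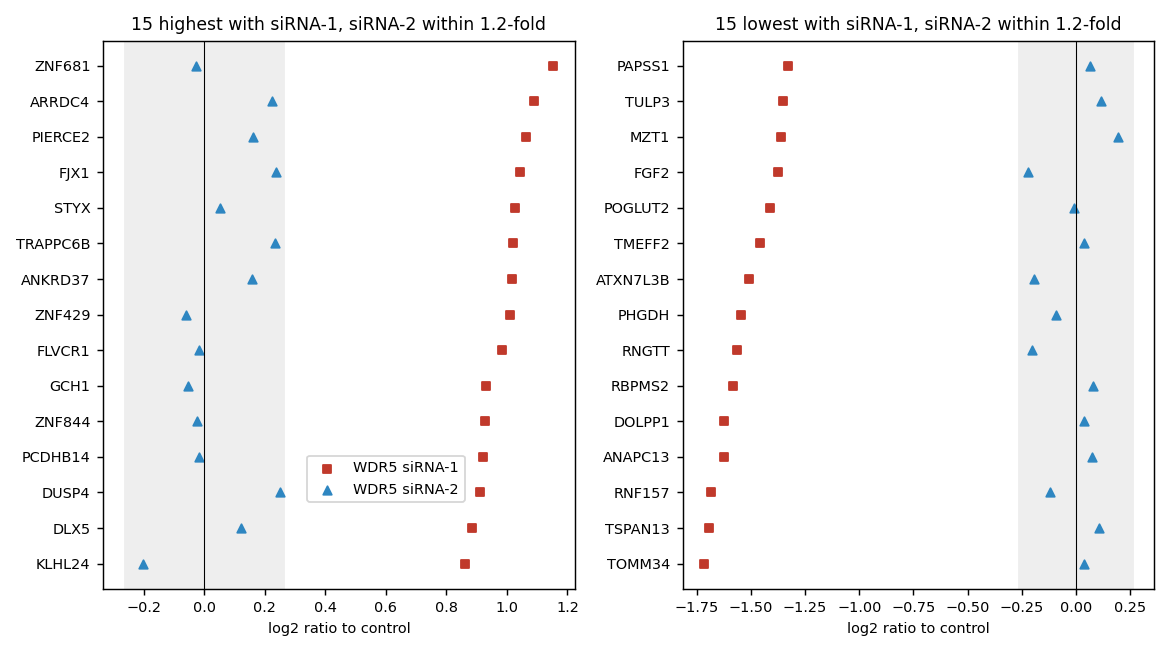
Log2 ratio to control (horizontal axes) with WDR5 siRNA-1 (squares) and WDR5 siRNA-2 (triangles) for the 15 highest (left) and 15 lowest (right) genes with siRNA-1 among those within 1.2-fold of control with siRNA-2 (grey band). Squares run from 0.86 to 1.15 on the left and from -1.72 to -1.33 on the right.

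A small number of genes lay on opposite sides of control, 7 higher with siRNA-1 and at least 1.5-fold lower with siRNA-2 (0.0941% of kept genes) and 10 the other way (0.134%). The 7 were MT1G, UHMK1, MT1F, HIPK3, MT1X, SMAGP and AP1AR, the last 2 named after their values were seen. MT1G, as described above, was kept through its siRNA-1 level. Metallothioneins, small cysteine-rich proteins that bind zinc and copper and are induced by metals through the factor MTF1, made up 3 of the 7. MT1F stood at 9.10 with control, 10.43 with siRNA-1 and 7.35 with siRNA-2, and MT1X at 10.87, 11.82 and 9.52. MT2A stood at 9.87, 10.40 and 9.31, the same order, but its ratio of 0.53 was below 1.5-fold. Of 12 metallothionein list genes measured, 7 were kept, with a median ratio of 0.53 against 0.00 for all kept genes. Without the level limit the median of the list was 0.18. MTF1 itself had a ratio of 0.22, MT4 of 0.03 and MT1E of 0.00. Since metallothionein paralogs differ by few bases, a probe of 1 gene may also bind transcripts of another.

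Promoter sequence was read because these genes differed together. The windows are the 250 bases before the gene start, from the RefSeq table of build GRCh38.p14, for the 2 of 4 metallothionein genes that this table held. Capitals mark matches on either strand to TGCACNC or TGCGCNC, core letters of the metal response element to which MTF1 binds. MT1X, at chr16:56682220-56682469 on the plus strand, held 4 matches, and MT2A, at chr16:56608334-56608583 on the plus strand, held 7, with no overlaps among them.
MT1X: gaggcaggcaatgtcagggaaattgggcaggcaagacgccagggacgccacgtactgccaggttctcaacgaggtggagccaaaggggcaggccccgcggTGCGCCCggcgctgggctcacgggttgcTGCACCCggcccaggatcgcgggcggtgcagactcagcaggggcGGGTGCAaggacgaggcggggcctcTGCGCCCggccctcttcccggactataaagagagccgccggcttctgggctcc
MT2A: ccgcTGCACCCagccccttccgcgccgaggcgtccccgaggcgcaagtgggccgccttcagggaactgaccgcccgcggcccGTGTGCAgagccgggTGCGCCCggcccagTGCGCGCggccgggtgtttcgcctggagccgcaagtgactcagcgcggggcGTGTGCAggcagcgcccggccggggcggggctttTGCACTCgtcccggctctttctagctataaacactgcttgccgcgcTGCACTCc
Of 27303 promoter windows of this length, 24.7% held at least 1 match, 0.366% at least 4 and 0.033% at least 7. A match describes the letters only and is no measure of binding.

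The 10 genes lower with siRNA-1 and higher with siRNA-2 included a receptor, a synaptic protein and a motor protein. KIF3B, a kinesin of ciliary transport, stood at 8.50 with control, 7.36 with siRNA-1 and 9.18 with siRNA-2. NPY2R, a neuropeptide Y receptor, stood at 10.55, 9.48 and 11.21. LRRTM1, a synapse-organising membrane protein, stood at 8.87, 7.99 and 9.97. For all 3 the siRNA-1 array was the lowest and the siRNA-2 array the highest, which follows from how they were chosen. MED12L, a Mediator kinase module protein, had ratios of -1.01 and 0.65, and TPBGL of -0.83 and 0.86.

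The functions were then followed through lists of genes. Of the kept genes 861 were on a list, among them 23 of the 167 higher and 55 of the 342 lower genes. Most kept genes, whether or not they differed with siRNA-1, therefore belonged to none of the functions listed. With 64 added to each value on the linear scale, which damps ratios at low levels, MEN1, KIF2C, RPL34, CTH, LDHA, BCL2L11, LOXL1 and KDM3A were no longer at 1.5-fold, and with quantile normalization LDHA was not. Counts of lists below are to be read against 2.24% higher and 4.60% lower among all kept genes. The lists were written with earlier results of these data known, so a list share set beside these is a description and not a test.

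Genes that control entry into S phase, activators and repressors alike, had lower members and no higher ones. Of 21 G1/S and E2F genes measured, 19 were kept, 6 were lower and 0 higher, and the median ratio was -0.11 and the mean -0.44. Beside CCNE1 and E2F7 these were CDK2, the cyclin E kinase, at 10.35 with control, 9.01 with siRNA-1 and 10.06 with siRNA-2, and E2F1, the activating E2F factor, at 10.86, 9.72 and 10.18. E2F2 had a ratio of -0.96 and CDC25A, the phosphatase that activates CDK2, of -0.86. CDK2 was 2.54-fold lower with siRNA-1 and had a ratio of -0.30 with siRNA-2, where the list had 3 lower members and a median of -0.25.

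The E2F1 promoter is itself a known target of E2F factors and is shown because E2F1, E2F2 and E2F7 were lower together. E2F3 and E2F8 of the same list were near control, with ratios of 0.09 and -0.09. Capitals mark matches on either strand to TTTNNCGC, the core letters of the E2F site, in the 250 bases before the start of E2F1 (RefSeq, GRCh38.p14, chr20:33686386-33686635, minus strand, written 5′ to 3′ along the gene).
E2F1: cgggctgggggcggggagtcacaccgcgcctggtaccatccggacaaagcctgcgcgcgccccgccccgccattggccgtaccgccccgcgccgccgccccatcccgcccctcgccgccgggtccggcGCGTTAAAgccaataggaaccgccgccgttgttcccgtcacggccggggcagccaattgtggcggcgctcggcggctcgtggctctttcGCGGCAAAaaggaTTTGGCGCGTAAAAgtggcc
The window held 4 matches, some of them overlapping. At least 1 match was present in 5.93% of 27303 windows and at least 4 in 0.011%. The letters say nothing of whether a factor was bound in these cells.

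The machinery of S phase, mitosis and DNA repair made up further lists. Of 22 DNA replication genes kept, MCM3, a subunit of the replicative helicase, was the only member lower by 1.5-fold (11.70, 10.64 and 11.31 with control, siRNA-1 and siRNA-2), and the list median was -0.12, with 15 members below control and 5 above. DTYMK, thymidylate kinase, was the 1 lower member of 16 nucleotide synthesis genes, with a ratio of -0.80. Of 40 mitotic genes kept, 31 were below control and 5 above, with a median of -0.15 and 6 lower by 1.5-fold. These were the spindle proteins NUSAP1 (-0.69), KIF4A (-0.68), KIF14 (-0.64), AURKA (-0.64) and KIF2C (-0.64), and INCENP of the chromosomal passenger complex. Among 19 homologous recombination and mismatch repair genes, the median was -0.22, and BARD1 (-0.78), the partner of BRCA1, the helicase BRIP1 (-0.71) and RAD50 (-0.70) were lower. In each of these lists 0 members were higher by 1.5-fold. These lists were below control with siRNA-2 too. The siRNA-2 medians were -0.33 for replication, -0.08 for nucleotide synthesis, -0.26 for mitotic and -0.34 for repair genes. The lower members with siRNA-2 numbered 4, 1, 4 and 5 in the same order.

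Genes for the making of proteins were followed in 4 lists. For cytoplasmic ribosomal proteins, 45 genes were kept with a median ratio of -0.30, 34 below control, 7 above and 7 lower by 1.5-fold. RPL29 (-1.05), RPL9 (-0.79), RPS6 (-0.79), RPL36 (-0.79) and RPL34 (-0.78) had the largest ratios, and these genes have many processed pseudogenes that the probes can also read. With siRNA-2 the cytoplasmic ribosomal protein list had a median of -0.35 and 11 lower members. The 71 mitochondrial ribosomal protein genes had a median of 0.09, with 48 above control and 12 below, and 0 at 1.5-fold. MRPS5 stood at 9.50 with control, 10.05 with siRNA-1 and 9.80 with siRNA-2, and MRPL1 had a ratio of 0.53. Of 30 ribosome biogenesis genes, 18 were above control and 6 below, and HEATR1, a rRNA processing factor, was closest to the limit with 10.34, 10.92 and 11.11. Among 30 translation factors and tRNA synthetases, 10 were above control and 13 below, the median was 0.00, and 1 was lower, EIF4EBP2, a repressor of cap-dependent initiation, with a ratio of -0.73.

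Metabolic lists were near control as a whole with a few members apart. Of 16 serine synthesis and integrated stress response genes, PHGDH and CTH (-0.66), which makes cysteine from cystathionine, were lower, and the median was 0.00. SESN2, a sestrin induced by amino acid stress, stood at 8.02, 7.49 and 8.31, a ratio of -0.52. The 12 ceramide and sphingolipid enzymes had a median of 0.02 and a mean of -0.14. Among them CERK, ceramide kinase, stood at 10.87, 9.59 and 9.64, and ACER3, a ceramidase, at 8.40, 7.37 and 8.63. CERK was lower with both siRNAs, and the siRNA-2 ratio of ACER3 was 0.23. SCD, the desaturase of stearic acid, was at 13.36, 12.69 and 13.50, the 1 lower member of 14 fatty acid synthesis genes.

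Of 18 sterol synthesis genes, 13 were above control and 3 below, with a median of 0.03 and a mean of 0.17. With the level limit at the 75th percentile the median was 0.26. INSIG1, which retains the sterol sensor in the endoplasmic reticulum, stood at 10.76 with control, 11.47 with siRNA-1 and 11.20 with siRNA-2 and was the only member past 1.5-fold. With siRNA-2 the same list had a median of 0.35 and 5 higher members. LDHA, lactate dehydrogenase A, had a ratio of -0.61 and was the only lower member of 9 glycolysis genes, and the 15 oxidative phosphorylation genes had 0 members at 1.5-fold. TXN, thioredoxin, at 10.83, 9.95 and 10.43, was the 1 lower member of 15 iron and redox genes. Of 18 chaperone and unfolded protein response genes the near-identical HSPA1A and HSPA1B were lower, with ratios of -0.79 and -0.68.

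Genes of cell identity went in both directions. In the adrenergic list, 22 genes were kept with a median of 0.00, GCH1 was the 1 higher and DBH the 1 lower member. DBH, which makes noradrenaline from dopamine, stood at 10.38 with control, 9.58 with siRNA-1 and 10.90 with siRNA-2. CHGA, a protein of secretory granules, had the same order with 10.87, 10.40 and 11.60. Transcription factors of the list lay on both sides of control, with INSM2 at -0.54, PHOX2A at -0.18, GATA2 at -0.09, GATA3 and HAND2 at -0.02, ISL1 at 0.23 and SIX3 at 0.49, all below 1.5-fold.

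Of 22 mesenchymal neuroblastoma genes measured, 9 were kept and 3 were higher with siRNA-1. The median ratio was 0.07 and the mean 0.31, with 5 above control and 2 below. Beside LUM these were VIM, vimentin, at 8.21, 8.96 and 7.93, and SNAI2, a factor of epithelial to mesenchymal transition, at 12.16, 12.88 and 12.22. The higher call of VIM was absent when its probe sets were averaged. THY1, a surface glycoprotein, had a ratio of -0.33. FOSL2, another member, stood at 8.31 on both the control and the siRNA-1 array. PRRX1, FN1 and CD44 were below the level limit.

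Neuronal genes included 2 higher and 4 lower members among 25 kept. VGF and SYT4, a synaptotagmin (0.77), were higher. DPYSL5, a growth cone protein, stood at 9.67 with control, 8.52 with siRNA-1 and 8.69 with siRNA-2. GAP43, another growth cone protein, stood at 9.93, 8.96 and 9.64, and CNTN1, an axonal adhesion protein, at 11.20, 10.48 and 10.99. MAPT, tau, had a ratio of -0.62. Of 24 synaptic vesicle genes, STXBP5 (1.02), the syntaxin-binding protein tomosyn, and SYT4 were higher and 0 lower.

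Among the signalling lists, the immediate-early and MAP kinase feedback genes had the highest median ratio. Of 21 such genes kept, 14 were above control and 3 below, with a median of 0.21, or 0.06 without the level limit. EGR1, DUSP4 and JUNB, an AP-1 factor, were higher, JUNB with 8.78, 9.56 and 9.73 on control, siRNA-1 and siRNA-2. DUSP1, another MAP kinase phosphatase, had a ratio of 0.54. In the insulin-like growth factor list 4 of 13 genes were lower and 0 higher. Beside IGFBP5 these were STC1, stanniocalcin 1, at 10.61, 9.30 and 10.08, INSR, the insulin receptor, at 7.83, 6.67 and 7.51, and IGFBP4 at 10.21, 9.43 and 9.17. IGF1R, the receptor, lay on the other side with a ratio of 0.54. BAMBI, a decoy receptor of TGF-beta signalling, stood at 10.95, 10.13 and 11.36, and LGR5, an R-spondin receptor of the Wnt pathway, at 8.57, 7.66 and 8.63.

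Matrix genes had 2 higher and 2 lower members of 12 kept. TIMP3 and TIMP2 inhibit metalloproteinases and lay on opposite sides, with TIMP3 at 8.07, 8.98 and 9.12 and TIMP2 at 10.07, 9.12 and 9.43. LOXL1, a collagen crosslinking enzyme, had a ratio of -0.69. The higher call of TIMP3 was absent when its probe sets were averaged. In the cilium and centrosome list, 3 of 43 genes were higher and 1 lower. The higher ones were IFT57, ARL6 (0.97), which recruits the BBSome, and TMEM67 (0.96), a transition zone protein, and the lower one was KIF3B.

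Chromatin genes were mostly near control. Of 25 subunits of WDR5-containing complexes, WDR5 and MEN1, menin, were lower and 0 were higher, and the median was 0.00. MEN1 stood at 8.57, 7.94 and 8.36, and OGT, a transferase that binds this family of complexes, at 11.18, 10.66 and 11.18. Of 54 other histone-modifying enzymes, SUZ12, a core subunit of the Polycomb complex that methylates lysine 27 of histone H3, stood at 11.46, 10.57 and 11.38, or 1.86-fold lower with siRNA-1. CARM1, an arginine methyltransferase, had a ratio of -0.63 and KDM3A, a lysine demethylase, of 0.66. SUZ12 and KDM3A were within 1.2-fold of control with siRNA-2, and CARM1 was lower with it (-0.87).

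Other single members stood out in lists with medians at or near 0. IPO7, an importin, stood at 11.85, 11.02 and 11.79 and lay opposite KPNA5. SNHG15 and SNHG16, host genes of small nucleolar RNAs, stood at 9.88, 8.87 and 8.77 and at 12.67, 11.67 and 12.88. BCL2L11, the pro-apoptotic BIM, had a ratio of 0.67 and BCL2 of -0.53, and with siRNA-2 these were 0.00 and 0.37. PLK2 was the 1 higher member of 12 p53 target genes, and MBNL1, a splicing regulator, the 1 higher member of 45 splicing factors, though not when its probe sets were averaged. The MYC and MAX network had 1 lower member, LDHA, of 17 kept. HOX genes (9 kept), interferon-stimulated genes (5) and autophagy and lysosome genes (20) had 0 members at 1.5-fold. The 7 housekeeping references had ratios from -0.02 to 0.19.

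**Figure D4:**
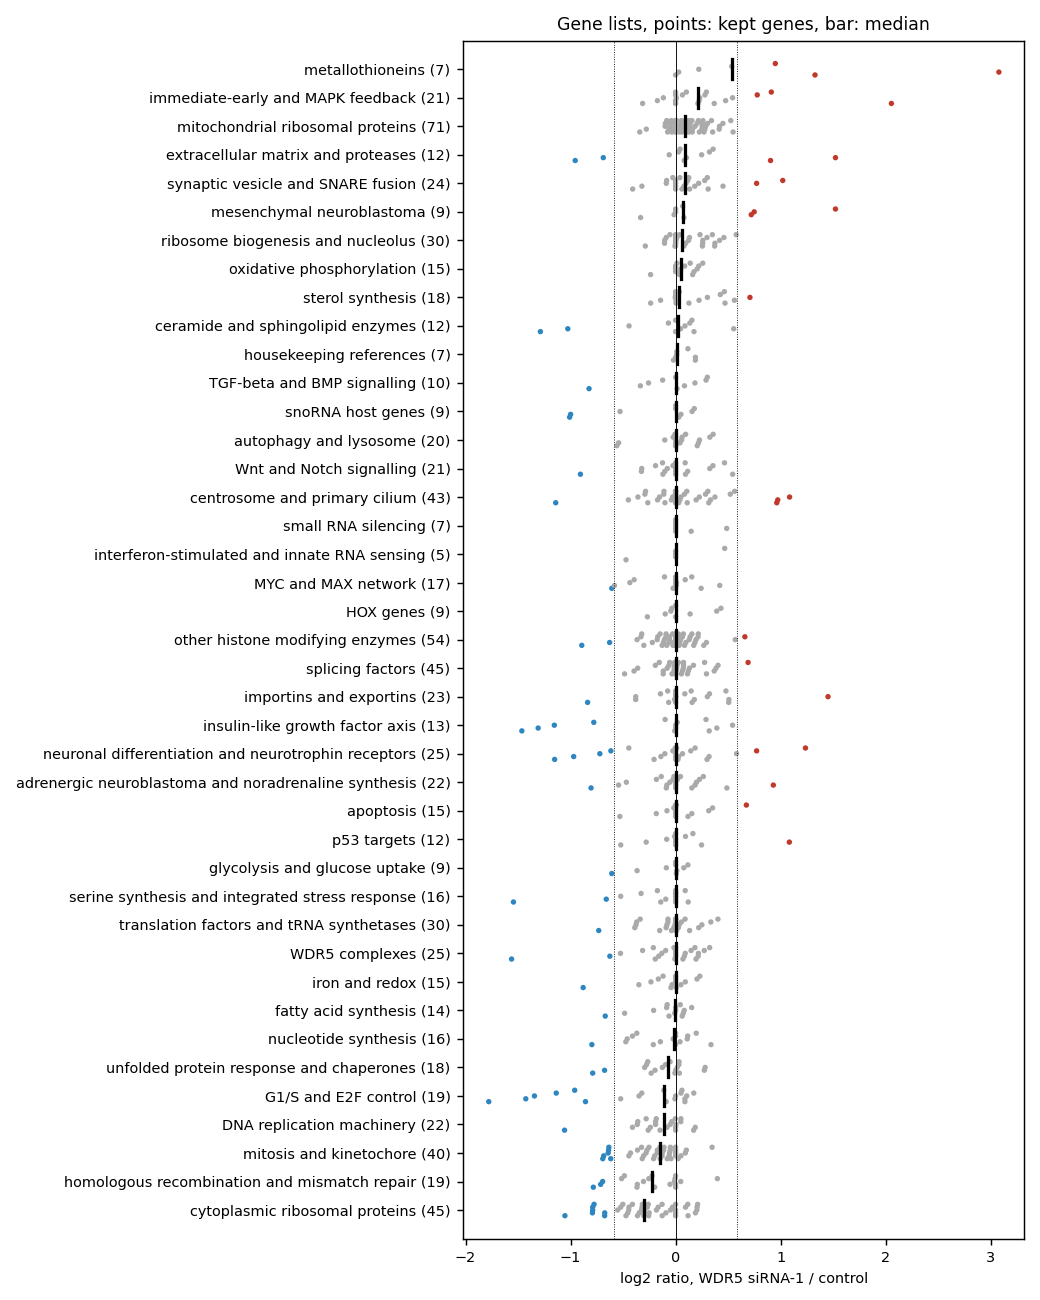
Log2 ratio of WDR5 siRNA-1 to control (horizontal axis) for the kept members of 41 gene lists with at least 5 of them, ordered by median; points are genes, red at least 1.5-fold higher and blue at least 1.5-fold lower, and black bars are medians. Metallothioneins lie at the top with a median of 0.53 and cytoplasmic ribosomal proteins at the bottom with -0.30.

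MicroRNA genes between DLK1 and DIO3 on chromosome 14, an imprinted cluster expressed from the maternal copy, lay mostly below control with siRNA-1. This set was chosen after its values were seen. Of 49 measured, 21 were kept, 18 were below control and 3 above, 4 were lower by 1.5-fold and 0 higher. Their median ratio was -0.35, while the 170 other microRNA genes kept had a median of 0.00 with 3 higher and 4 lower. MIR487B and MIR668 were kept through their siRNA-2 level alone, being below 6.78 on the control and siRNA-1 arrays. With no level limit the 49 genes had a median of -0.12. The probe sets read the hairpin or its primary transcript, and all come from the same transcribed region, so the 21 values are not independent.

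The 4 lower genes gave the following mature microRNAs (RefSeq, GRCh38.p14), printed so that their targeting can be read, with the seed, bases 2 to 8, in capitals.
hsa-miR-544a: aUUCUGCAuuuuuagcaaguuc
hsa-miR-487b-3p: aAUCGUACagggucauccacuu
hsa-miR-487b-5p: gUGGUUAUcccuguccuguucg
hsa-miR-300: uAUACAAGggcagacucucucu
hsa-miR-889-3p: uUAAUAUCggacaaccauugu
hsa-miR-889-5p: aAUGGCUGuccguaguaugguc
The 6 seeds differ from each other, so these genes share a locus and not a seed. The arrays do not tell which arm of a hairpin was present.

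MIR544A stood at 9.03 with control, 8.35 with siRNA-1 and 9.61 with siRNA-2. MIR487B stood at 6.76, 6.11 and 7.67, MIR300 at 7.27, 6.64 and 7.95, and MIR889 at 7.49, 6.88 and 8.01. These 4 were below control with siRNA-1 by their choice, and the siRNA-2 array was the highest for each. With siRNA-2 the 21 genes had a median of 0.55, with 8 higher and 0 lower. The long transcripts of the region had the same order of arrays with small differences from control for siRNA-1: MEG3, the maternally expressed noncoding RNA, stood at 10.26, 10.16 and 10.81, MEG9 at 7.49, 7.22 and 7.67, and RTL1, a retrotransposon-derived gene, at 9.19, 8.84 and 9.54. DLK1 stood at 12.72, 12.78 and 13.01 and was not lower.

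Genes of the protocadherin beta cluster, neuronal adhesion proteins that lie side by side and are close paralogs, were also chosen after their values were seen. Of 19 measured, 11 were kept, 10 were above control with siRNA-1 and 1 below, and the median ratio was 0.36. Those at least 1.5-fold higher were PCDHB13 (6.69 with control, 7.76 with siRNA-1 and 6.42 with siRNA-2), PCDHB14 (8.89, 9.81 and 8.87), PCDHB12 (7.69, 8.52 and 7.94) and PCDHB2 (7.97, 8.66 and 7.55). These 4 genes were above control with siRNA-1 by their choice, and their siRNA-1 level was above that with siRNA-2 as well. PCDHB13 was below the level limit of 6.78 on the other arrays and was kept through its siRNA-1 level, so it could be kept only with a high value there. It is part of the counts and the median above, and a median without the level limit was not taken for this family. PCDHB18P, a pseudogene of the cluster, is also among the 11, with a ratio of 0.23. With siRNA-2 the median of the 11 was -0.22, with 0 higher and 2 lower. Probes of these paralogs can read each other, so the members are not independent.

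**Figure D5:**
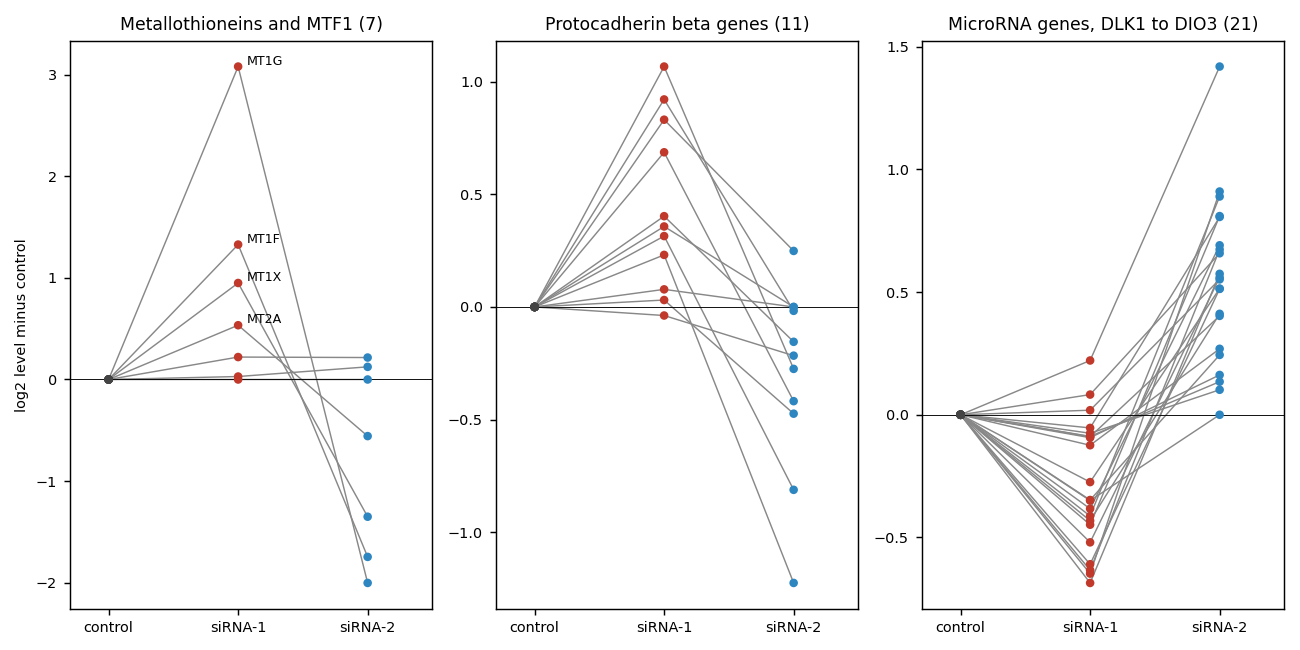
Log2 level minus that of the control array (vertical axes, each panel on its own scale) on the control, WDR5 siRNA-1 and WDR5 siRNA-2 arrays for 7 kept genes of the metallothionein list (left), 11 protocadherin beta genes (middle) and 21 microRNA genes between DLK1 and DIO3 (right); each line is 1 gene. The medians with siRNA-1 are 0.53, 0.36 and -0.35.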

How the data were processed

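Biotin-labelled cRNA was made from column-purified RNA, per the labels' protocols. The authors deposited a value table with 53617 probe sets and 1 column per array, whose values were read here as log2 levels from their range, since the file states no scale. The submitters' processing notes name MAS5, without a version. Background correction, normalization, summary of probes and a genome build are not given in the sources used here. The deposited values were used without further scaling.

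Of the probe sets, 16098 had 1 gene symbol in the platform annotation, 0 had several and 37519 had none. All 16098 matched the RefSeq table of GRCh38.p14 by Entrez identifier, which gave current symbols. Where a gene had several probe sets (779 genes), the highest mean over the 3 arrays was taken. Groups follow the labelled siRNA, with 1 array each, so no test was run, and the number of arrays limits the precision. Separate cultures are not stated.

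The genes named are WDR5, the 25 highest and 25 lowest ratios, the 15 highest and 15 lowest of those within 1.2-fold of control with siRNA-2, the 5 highest and 5 lowest with the opposite direction by 1.5-fold with siRNA-2, and up to 5 members of each of 46 lists by absolute ratio. Further members at 1.5-fold and the genes said to be chosen after their values were seen lie outside it. Olfactory receptors, small RNA genes, open reading frame, LINC, LOC, FAM and uncharacterised names, pseudogenes and antisense transcripts were counted and not named by the first rules. The comparison, members and lists were chosen with earlier results of these data known. MYCN and MDM2 were not analysed here.

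Alternatives changed the normalization, level limit, choice of probe set, addition of 64 on the linear scale, fold and siRNA-2 limit, and for lists the mean. The counting code was run on simulated levels with little noise and changes well past the 1.5-fold limit, which checks the code and not the counts. Python 3.11.15, numpy 2.4.6, pandas 2.3.3 and matplotlib 3.10.9 were used.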

Additional observations from a re-analysis of the deposited data

Results flagged for a closer look

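Of the genes at least 1.5-fold from control in opposite directions with the WDR5 siRNAs, the 5 highest with siRNA-1 had ratios of 3.08 (MT1G), 1.36 (UHMK1), 1.33 (MT1F), 1.26 (HIPK3) and 0.95 (MT1X), and MT1G stood at 5.36 with siRNA-2 against 7.36 with control. The siRNA-2 ratios of the other 4 were -0.75, -1.75, -0.77 and -1.35. The 5 lowest with siRNA-1 had ratios of -1.14 (KIF3B), -1.07 (NPY2R), -1.01 (MED12L), -0.88 (LRRTM1) and -0.83 (TPBGL), beside 0.68, 0.66, 0.65, 1.09 and 0.86. With 1 array each, the difference between the siRNAs was not tested.

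Probe sets without a gene name here were not part of the comparisons. Of 8846 at or above the level limit, 360 (4.07%) were at least 1.5-fold higher with siRNA-1 and 538 (6.08%) at least 1.5-fold lower. Among named genes these shares were 2.24% and 4.60%.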

How the results depend on the processing

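The counts of 167 higher and 342 lower genes, and of 59 and 160 near control with siRNA-2, were recomputed under each alternative. Quantile normalization gave 180, 318, 63 and 162, alignment of array medians 182, 333, 67 and 158, averaged probe sets 159, 336, 54 and 158, the probe set highest on the control array 166, 343, 58 and 160, and 64 added on the linear scale 124, 228, 43 and 117. Without a level limit they were 230, 413, 89 and 182, and with a limit at the 75th percentile, where 3721 genes were tested, 98, 181, 29 and 92. At 2-fold they were 39, 83, 8 and 36. With siRNA-2 within 1.1-fold, 33 and 91 were near control, and with siRNA-2 below 1.5-fold in the same direction, 121 and 279. Lower genes outnumbered higher ones in all of these. Over the changes of normalization, level limit, probe set and offset, 32.1% to 36.1% of called genes were higher. Quantile normalization moved the median of all genes by 0.03.

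Of 127 named genes called, LDHA lost its call with quantile normalization, VIM, TIMP3 and MBNL1 with averaged probe sets, and MEN1, KIF2C, RPL34, CTH, LDHA, BCL2L11, LOXL1 and KDM3A with 64 added. IFT74 gained a call with quantile normalization and HEATR1 with aligned medians. No called named gene changed direction. Of 323 list medians or means recomputed, 308 moved by less than 0.1, and no list with a median of at least 0.1 in size changed direction. No paired analysis was possible because each group had 1 array. Signal over background limits the folds, since 2313 of 7442 genes were above the highest background row on both arrays.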

Other observations

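Zinc finger genes with a ZNF symbol were described as a family after their values were seen. Of 298 kept, 137 were above control with siRNA-1, 75 below and 86 equal, with 12 higher (4.03%) and 6 lower (2.01%) by 1.5-fold. Beside the members described above, ZNF367 stood at 9.50 with control, 10.50 with siRNA-1 and 10.19 with siRNA-2, ZNF480 at 8.42, 9.37 and 8.78, and ZNF770 at 10.61, 11.33 and 10.68. The lowest member was ZNF318, at 9.31, 8.50 and 8.72. With siRNA-2, 2 were higher and 7 lower. Many of these genes are paralogs with similar finger sequences, so probes can read more than 1 of them.

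In the arrestin-domain family, 4 genes of ARRDC and TXNIP were kept. ARRDC3 and ARRDC4 were higher with siRNA-1, while TXNIP, which limits glucose uptake, stood at 9.13, 9.19 and 8.83, and ARRDC2 at 6.91 on both the control and siRNA-1 arrays.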
